A study of Rattus norvegicus with 36 samples.

Results

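Scavenger and phagocytic receptors are the surface proteins with which a macrophage grips inhaled particles, modified lipoproteins and dying cells. The 10 receptor genes described here were chosen by symbol: Marco, Msr1, Stab1, Cd36, Scarb1, Mrc1, Mertk, Axl, Cd163 and Olr1. Of these, 9 were rows of the deposited table of 23487 genes, and Cd36 was not analysed here. The test across all genes took in 14606 genes with enough counts. It held 8 of the receptors, and Cd163 lay below its filter on low counts.

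RNA was sequenced from alveolar macrophages, the phagocytes of the lung's air spaces. They came from male F344 rats, were cultured in medium with serum and were exposed for 4 days. The groups were overload, non-overload and control cultures of 4 particles, namely Printex90, which is a carbon black, and G1-1, G3-1 and Bayertitan, which are titanium dioxides. Each particle had its own control, with 3 biological replicates in each of the 12 groups. The amounts of particle, the age of the rats and whether replicates were separate animals or separate cultures are not stated in the sources used here. The p-values therefore take the spread among these libraries as it is, and that spread may be technical. All groups are cells in culture, apart from the mucus transport and lymph drainage that share in particle clearance in the lung.

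In the lung, alveolar macrophages bind bare particles mainly through class A scavenger receptors, a family in which Marco and Msr1 are trimers with collagen-like stalks. Scarb1, Cd36 and Olr1 bind lipoproteins and oxidised lipids, and Stab1, Mertk and Axl take part in the clearance of dead cells, which display phosphatidylserine on their surface. Mertk and Axl do not touch that lipid themselves: bridging proteins, Gas6 for both and protein S for Mertk, hold receptor and dead cell together. Particle overload is the state in which the load carried by the macrophages slows their clearance of particles from the lung.

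Total counts were 26.1 to 43.2 M per library. Levels are given in CPM, the counts scaled to the size of the library, where 3 counts amounted to 0.0695 to 0.115 CPM. Transcript lengths were not used, so CPM values are compared between samples and not between genes. The libraries carried the macrophage genes Lyz2 at 11242 to 17675 CPM, Fabp4 at 1001 to 1562 CPM and Itgax at 734 to 1095 CPM. Of the 12 alveolar macrophage markers, Marco and Ear1 stood near 0, with at most 35 and 8 counts in a library. Col3a1, a collagen gene of fibroblasts, stood at 13.6 to 109.5 CPM in 8 libraries. The other 28 had at most 2.88 CPM. Those 8 were replicate 2 of G1-1 overload, Printex90 control and Printex90 non-overload, replicates 1 and 2 of both G3-1 overload and G3-1 control, and replicate 1 of Bayertitan non-overload. Epithelial genes were present in all libraries, with Epcam at 36.7 to 96.4 CPM and Krt8 at 248 to 525 CPM. The part of these cells in the results was not tested, and results that change without these libraries are given below with the value obtained.

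Receptor transcripts were called as changed in overload with 2 of the 4 particles. In G1-1 overload, 6 of the 8 tested receptors differed from control by edgeR's quasi-likelihood test at a Benjamini-Hochberg adjusted p under 0.05, which is the threshold for every call here. Scarb1 was the receptor that was higher, while Stab1, Msr1, Marco, Mertk and Axl were lower. Of all genes tested, 28.1% were called in that comparison, 13.7% higher and 14.4% lower. In Printex90 overload 3 of 8 were called, Scarb1 higher and Stab1 and Axl lower, against 14.8% of all genes, 7.45% higher and 7.31% lower. In G3-1 overload none of the 8 passed with 0.568% of all genes called, and in Bayertitan overload none passed with 0.329% called. DESeq2 likewise called none of the 8 with these 2 particles. At an unadjusted p under 0.05 there were 3 receptors with G3-1 and 1 with Bayertitan, beside 1817 and 1115 of the 14606 genes tested. The median log2 change of the 8 receptors was -0.20 in G1-1 overload and -0.13 in Printex90 overload, beside medians of -0.02 and -0.01 over all genes. In bulk RNA, fewer cells that carry a transcript and less transcript per cell cannot be told apart.

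**Figure D1:**
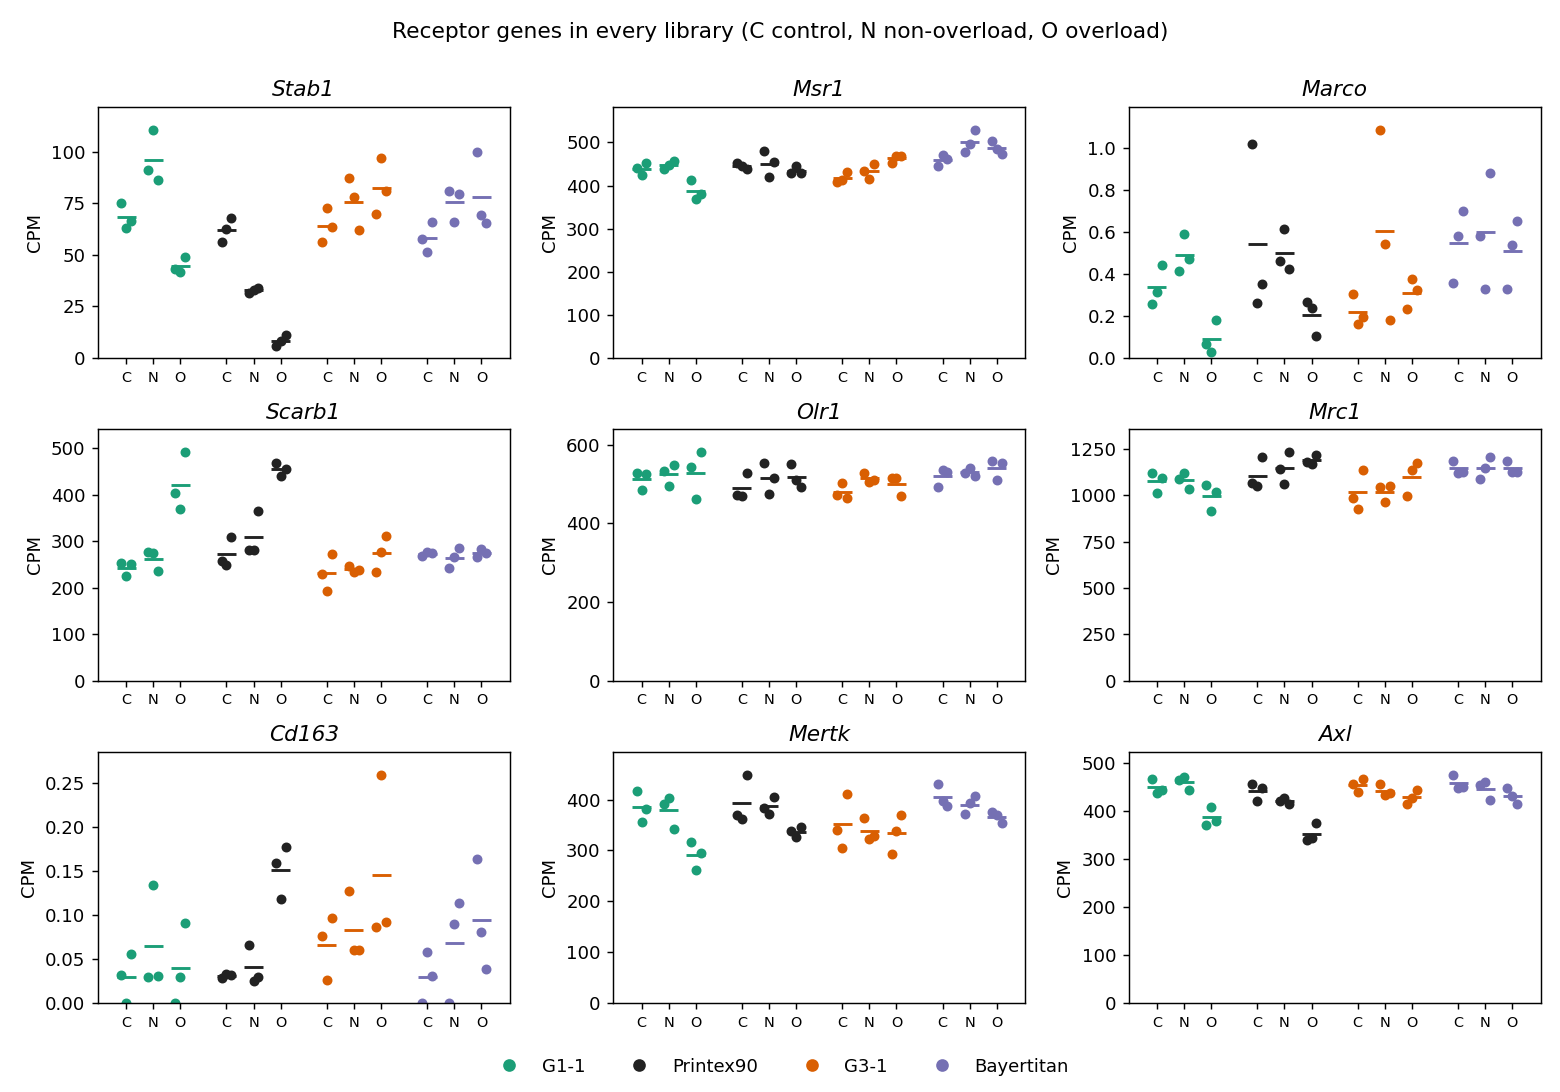
The plot shows the level (CPM, linear axis from 0) of 9 receptor genes in each of the 36 libraries, with a dot per library and a bar at the mean of 3, by particle and by condition (C control, N non-overload, O overload). Stab1 stands at 5.94 to 11.1 CPM in Printex90 overload and Scarb1 at 369 to 491 CPM in G1-1 and Printex90 overload, while Mrc1 lies between 917 and 1233 CPM in all libraries.

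Stab1 encodes stabilin-1, a large receptor that binds acetylated low-density lipoprotein and phosphatidylserine on dying cells, and that sorts cargo between the cell surface and lysosomes. It had the widest spread of the receptors after Marco and Cd163, whose counts were far lower, and its group means ran over a range of 11.5-fold. With Printex90, Stab1 was at 56.1, 62.6 and 67.8 CPM in control, at 31.4, 32.7 and 34.1 CPM in non-overload and at 5.94, 8.10 and 11.1 CPM in overload libraries. No library of any of these conditions overlapped with another condition, and the level stepped down at each. Overload differed from control by -2.91 on the log2 scale (SE 0.19, adjusted p = 6.77e-12), which is 7.53-fold lower. Overload was also lower than non-overload, at -1.99 (SE 0.19, adjusted p = 8.13e-08), in a comparison in which 3.51% of all genes were called.

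Non-overload with Printex90 was itself lower than control, with a log2 change of -0.93 (SE 0.17, adjusted p = 0.00855). Stab1 was the receptor called in that comparison, where 0.205% of all genes passed. The log2 change moved little between fits, but the call was lost in 4 of them. Without Printex90 control replicate 2 it was -0.91 (adjusted p = 0.0568), without non-overload replicate 1 it was -0.89 (adjusted p = 0.0822), and without the 8 libraries with collagen it was -0.92 (adjusted p = 0.163). Fitting the libraries of Printex90 alone gave -0.92 (adjusted p = 0.156). With the replicate number as a block it was -0.92 and passed (adjusted p = 0.00623). All 3 non-overload libraries were below all 3 control libraries. The share of all genes whose libraries separate in this way was not computed, here or for the other comparisons.

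The titanium dioxides gave other courses. With G1-1, Stab1 was at 75.0, 63.2 and 66.5 CPM in control, at 91.3, 111 and 86.4 CPM in non-overload and at 43.2, 41.7 and 48.7 CPM in overload libraries. The non-overload libraries were the highest of the 3 conditions and the overload libraries the lowest, with no overlap. The change of overload against control was -0.62 (SE 0.16, adjusted p = 0.00483), a 1.53-fold lower level. Against non-overload it was -1.11 (SE 0.16, adjusted p = 7.36e-06), where 22.7% of all genes were called. The higher non-overload level, at 0.50, missed the threshold (SE 0.16, adjusted p = 0.192).

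With G3-1, Stab1 stood at 56.4, 72.5 and 63.5 CPM in control, 87.2, 78.0 and 62.3 CPM in non-overload and 69.7, 97.2 and 81.0 CPM in overload libraries. With Bayertitan it stood at 57.6, 51.2 and 66.0 CPM in control, 81.1, 66.1 and 79.4 CPM in non-overload and 99.7, 69.1 and 65.2 CPM in overload libraries. The overload and control libraries overlapped with both particles, and the log2 differences of 0.37 (SE 0.16, adjusted p = 0.354) and 0.42 (SE 0.16, adjusted p = 0.423) were not called.

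The difference between the particles' Stab1 responses was tested directly. The Printex90 overload response lay below that of G3-1 on the log2 scale (-3.28, SE 0.25, adjusted p = 6.78e-10), with 0.644% of all genes called, and below that of Bayertitan (-3.33, SE 0.25, adjusted p = 4.95e-10), with 1.18% called. The G1-1 response lay above that of Printex90 by 2.30 (SE 0.25, adjusted p = 1.48e-07), with 11.1% called. It lay below that of Bayertitan (-1.04, SE 0.23, adjusted p = 0.00244), with 12.3% called, and below that of G3-1 (-0.98, SE 0.23, adjusted p = 0.00492), with 9.28% called. Without the 8 libraries with collagen the difference between G1-1 and G3-1 was -0.92 and lost its call (adjusted p = 0.132). In that fit G3-1 overload and G3-1 control had 1 library each, assumed to vary like the other groups. The responses to G3-1 and Bayertitan differed by -0.06 (95% interval -0.52 to 0.41, adjusted p = 0.989), and neither a receptor nor any other gene was called there by edgeR. DESeq2 called 7 genes and no receptor. By edgeR, none of the 8 receptors had an unadjusted p under 0.05, beside 565 of all genes tested.

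In non-overload the Stab1 response to Printex90 was also set against the other particles, in comparisons added after the data had been seen. It lay below the response to G1-1 (-1.42, SE 0.23, adjusted p = 0.00431) with 0.0411% of all genes called, and below that to Bayertitan (-1.30, SE 0.23, adjusted p = 0.0151) with 0.0685% called. Against G3-1 the difference of -1.17 (SE 0.23, adjusted p = 0.0503) was just outside the threshold, with 0.0342% called. DESeq2, which gave -1.16, called it (adjusted p = 0.0011), as did the fit without a filter on low counts (adjusted p = 0.0399) and that without G3-1 non-overload replicate 3 (-1.29, adjusted p = 0.0272). The Bayertitan difference lost its call without any of 7 single libraries, at -1.29 to -1.21 (adjusted p = 0.0564 to 0.0845). These were Printex90 control replicate 2, Printex90 non-overload replicates 1 and 2, Bayertitan control replicates 1 and 2, and Bayertitan non-overload replicates 1 and 3. Without the 8 libraries with collagen, the differences from G1-1 and Bayertitan were -1.41 (adjusted p = 0.0773) and -1.24 (adjusted p = 0.266).

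Ordered by group mean, Stab1 was highest in G1-1 non-overload at 96.2 ± 12.9 CPM (SD, n = 3 here and for all group means) and lowest in Printex90 overload at 8.36 ± 2.57 CPM. The libraries of neighbouring groups overlapped in 8 of the 11 steps of that order. The 3 steps without overlap were at the low end, from Bayertitan control at 58.3 ± 7.43 CPM to G1-1 overload at 44.5 ± 3.72 CPM, then to Printex90 non-overload at 32.7 ± 1.39 CPM and to Printex90 overload. Over the 12 group means of log2 CPM, the genes most like Stab1 among 11221 others were Csf2rb, the signalling chain of the receptor for the growth factor GM-CSF (Pearson r = 0.977), Ciita, the activator of MHC class II genes (r = 0.975), and Eng, a co-receptor for TGF-beta (r = 0.974). The low Printex90 groups are shared by all these points, so the r describes this set of libraries and carries no p. The deviations of the 36 libraries from their group means gave r between -0.07 and 0.10 for these 3 genes.

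The promoters of Stab1, Axl and Mertk, the 3 receptors that were lower in the mean response to overload, are printed here with the window that RefSeq's table of the GRCr8 assembly gives. That window runs from 250 bases before to 50 bases after a transcript start of the gene, on the gene's own strand. That start need not be the outer end of the gene. The Mertk window lies wholly inside the gene, whose span begins at position 136391936. Those of Marco, Cd36 and Olr1, searched below, also lie inside their genes, so sequence before the outer end of these genes was not searched. Stab1 is on the minus strand at chr16:6367310-6367609, Axl on the minus strand at chr1:90423960-90424259, and Mertk on the plus strand at chr3:136392324-136392623. Capitals mark GAGGAA or its reverse complement TTCCTC, the core recognised by PU.1, the transcription factor of the macrophage lineage.
Stab1: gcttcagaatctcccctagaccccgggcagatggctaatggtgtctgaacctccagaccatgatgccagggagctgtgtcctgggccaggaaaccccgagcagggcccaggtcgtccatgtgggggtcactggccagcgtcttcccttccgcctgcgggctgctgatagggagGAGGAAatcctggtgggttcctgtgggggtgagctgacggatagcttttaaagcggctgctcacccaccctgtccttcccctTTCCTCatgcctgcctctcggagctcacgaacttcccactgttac
Axl: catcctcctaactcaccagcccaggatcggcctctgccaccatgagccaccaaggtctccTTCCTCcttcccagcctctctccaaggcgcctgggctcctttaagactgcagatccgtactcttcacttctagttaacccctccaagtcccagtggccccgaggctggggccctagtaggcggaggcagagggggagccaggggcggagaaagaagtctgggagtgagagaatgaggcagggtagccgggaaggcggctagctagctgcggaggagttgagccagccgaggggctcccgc
Mertk: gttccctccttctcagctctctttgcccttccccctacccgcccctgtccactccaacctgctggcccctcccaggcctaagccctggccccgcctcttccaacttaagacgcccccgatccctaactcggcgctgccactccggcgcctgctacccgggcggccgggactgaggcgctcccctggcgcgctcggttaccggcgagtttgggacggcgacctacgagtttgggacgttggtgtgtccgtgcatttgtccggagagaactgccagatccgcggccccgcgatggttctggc
The Stab1 window held 2 such matches, the Axl window 1 and the Mertk window 0, none overlapping another motif searched. Of 33469 promoters in the table, 27.6% held at least 1. Matches were also counted in Mrc1, with 2, and in Marco, Olr1 and Cd36, with 1 each, while Cd163 had 0. Msr1 and Scarb1 were not in the table, so 8 of the 10 receptors were searched, on both strands, for 5 motifs. GCGTG, the core bound by the aryl hydrocarbon receptor, was in none of the 8 windows and in 29.7% of all promoters. TGACTCA, a site for AP-1, was in Olr1 alone, as was AGGTCA, a nuclear receptor half-site, and they were in 4.631% and 16.18% of all promoters. The Mertk window was the richest of the 8 in G and C, at 67.3% with 27 CpG dinucleotides, beside 61% for Stab1, 63% for Axl and a median of 51.7% over the table. A match is a stretch of letters and is not evidence that a factor binds there.

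**Figure D2:**
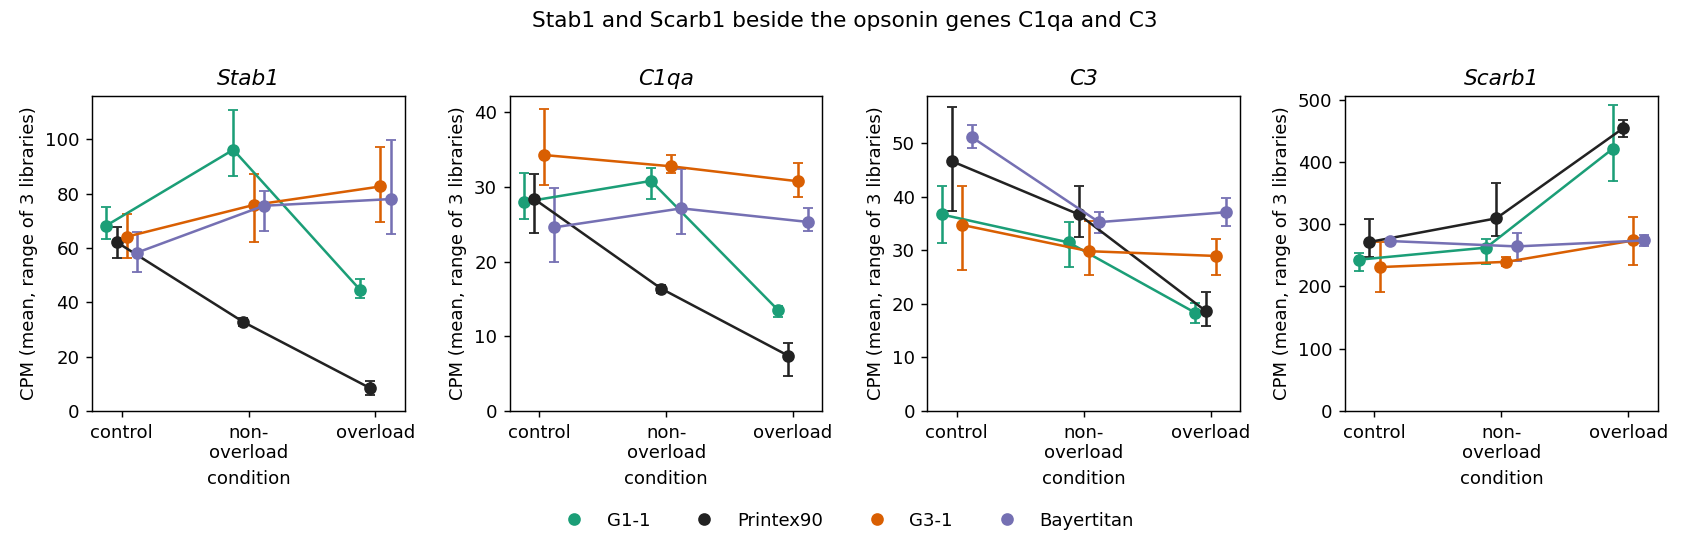
Lines join the mean levels (CPM, linear axes from 0) of Stab1, C1qa, C3 and Scarb1 in control, non-overload and overload cultures of each particle, and the bars span the 3 libraries. With Printex90, Stab1 and C1qa step down at non-overload and again at overload, to means of 8.36 and 7.41 CPM, and Scarb1 is higher in overload with G1-1 and Printex90 than in their controls.

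Scarb1 encodes the class B receptor SR-B1, which takes up cholesteryl esters from high-density lipoprotein and moves cholesterol across the membrane. It was the receptor that was higher in overload. With G1-1 it stood at 404, 369 and 491 CPM in overload and at 253, 225 and 251 CPM in control libraries. With Printex90 it stood at 468, 439.8 and 455 CPM in overload and at 258, 248 and 309 CPM in control libraries. In both pairs all overload libraries were above all control libraries. The log2 changes were 0.79 (SE 0.12, adjusted p = 6.16e-06) and 0.74 (SE 0.12, adjusted p = 6.61e-05), or 1.73-fold and 1.67-fold, and they differed from each other by 0.05 (95% interval -0.29 to 0.39).

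Non-overload libraries had 277, 275 and 235 CPM of Scarb1 with G1-1 and 281, 282 and 365 CPM with Printex90, which overlapped with the controls of both. Their log2 differences from control were 0.11 (SE 0.12, adjusted p = 0.815) and 0.19 (SE 0.12, adjusted p = 0.815). Overload was higher than non-overload by 0.68 with G1-1 (SE 0.12, adjusted p = 6.04e-05) and by 0.55 with Printex90 (SE 0.12, adjusted p = 0.006). The Printex90 call was lost without non-overload replicate 2, at 0.49 (adjusted p = 0.0663).

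With G3-1, Scarb1 stood at 234, 276 and 312 CPM in overload and at 229, 192 and 272 CPM in control libraries, and these overlapped. The difference of 0.25 (SE 0.12) was not called (adjusted p = 0.391). With Bayertitan it stood at 265, 282 and 275 CPM in overload and at 268, 276 and 275 CPM in control libraries, with a difference of 0.00 (95% interval -0.23 to 0.24, adjusted p = 1). All 6 of these Bayertitan libraries lay between 265 and 282 CPM.

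Tested directly, the Scarb1 response to G1-1 was above that to Bayertitan by 0.79 (SE 0.17, adjusted p = 0.00146) and above that to G3-1 by 0.55 (SE 0.17, adjusted p = 0.0327). The response to Printex90 was above that to Bayertitan by 0.74 (SE 0.17, adjusted p = 0.018), while its difference of 0.50 from G3-1 was not called (SE 0.17, adjusted p = 0.238). The differences from G1-1 minus G3-1 and Printex90 minus Bayertitan rested on single libraries. The call for G1-1 minus G3-1 was lost without any of G1-1 control replicates 2 and 3, G1-1 overload replicate 3, G3-1 control replicates 1 and 3, and G3-1 overload replicates 1 and 2, at 0.41 to 0.55 (adjusted p = 0.0557 to 0.136). The call for Printex90 minus Bayertitan was lost without any of Printex90 control replicates 1 and 2, Printex90 overload replicate 1 and Bayertitan overload replicate 1, at 0.68 to 0.72 (adjusted p = 0.0548 to 0.076). Among the genes most like Scarb1 over the 12 group means were Vapa (r = 0.991) and Rragc (r = 0.983), and the deviations of libraries from their group means gave r of 0.53 and 0.60.

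**Figure D3:**
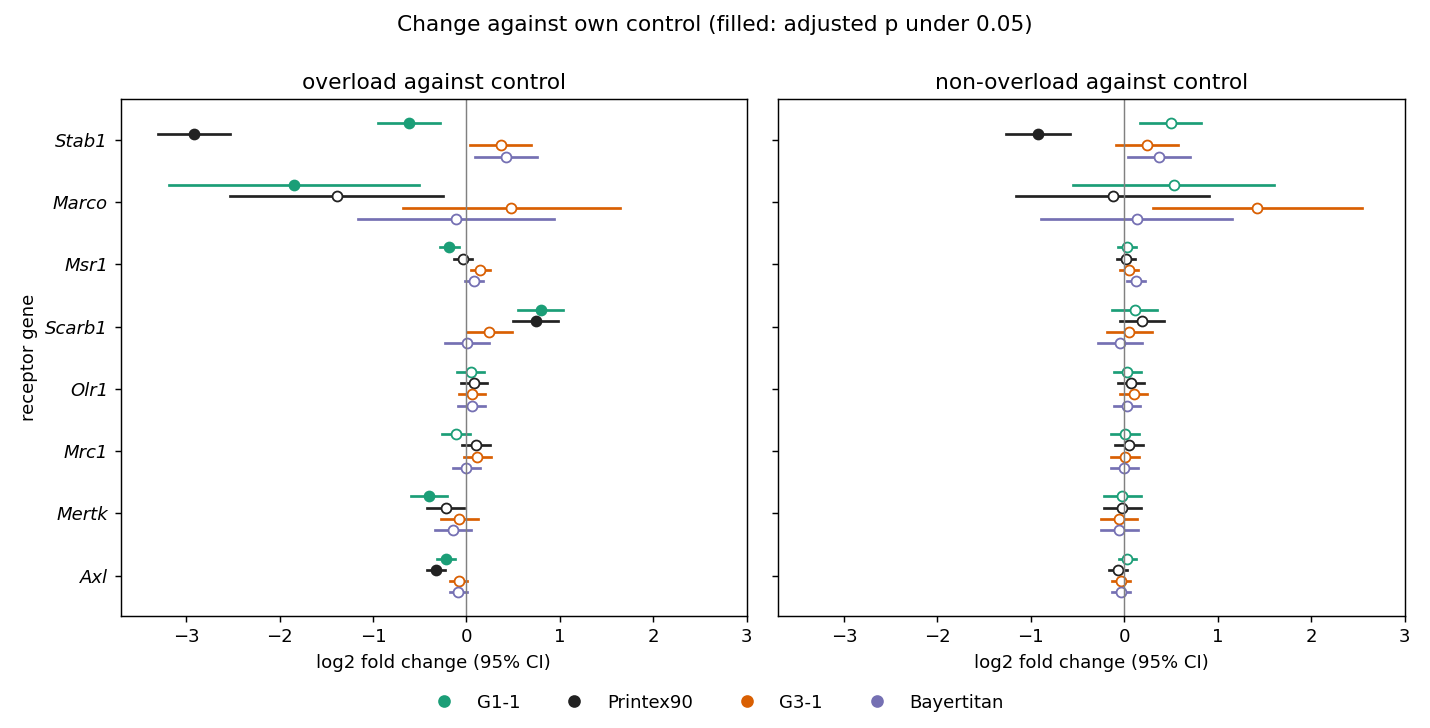
Points give the log2 fold change of 8 receptor genes in overload (left) and non-overload (right) against the control of the same particle, with 95% confidence intervals, and filled points have an adjusted p under 0.05. Stab1 with Printex90 is the filled point farthest from 0, at -2.91 in overload, and the filled Scarb1 points lie at 0.79 and 0.74.

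Mertk and Axl are receptor tyrosine kinases of the TAM family, which engulf dead cells through Gas6 and protein S and restrain inflammatory signalling. Axl moved little but with little spread. It stood at 338, 344 and 374 CPM in Printex90 overload and at 456, 420.2 and 447 CPM in Printex90 control libraries. With G1-1 it stood at 372, 407 and 379.6 CPM in overload and at 466, 438 and 442 CPM in control libraries. Neither pair overlapped. The log2 changes were -0.33 with Printex90 (SE 0.05, adjusted p = 1.75e-05) and -0.22 with G1-1 (SE 0.05, adjusted p = 0.000633), a change in level of -20.2% and -13.9%.

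Overload was also lower than non-overload for Axl, at -0.26 with Printex90 (SE 0.05, adjusted p = 0.00131) and -0.25 with G1-1 (SE 0.05, adjusted p = 0.000165), while non-overload was not called against control with any particle. Axl in overload stood at 414, 427 and 443 CPM with G3-1 and 447, 430.2 and 415 CPM with Bayertitan, against 456, 439 and 466 CPM and 475, 447 and 449.9 CPM in their controls. The changes of -0.08 (adjusted p = 0.463) and -0.09 (adjusted p = 0.732) were not called. The response to Printex90 differed from that to G3-1 and to Bayertitan by -0.24 each (SE 0.07), short of the threshold (adjusted p = 0.0913 and 0.0737). DESeq2 called both (adjusted p = 0.0308 and 0.0342), and so did the fit without Printex90 overload replicate 3, at -0.29 and -0.28 (adjusted p = 0.0424 and 0.0363). The difference from Bayertitan also passed without the 8 libraries with collagen (-0.27, adjusted p = 0.0448).

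Mertk stood at 317, 261 and 295 CPM in G1-1 overload and at 416, 356 and 382 CPM in G1-1 control libraries, without overlap. It fell by 24.3%, a log2 change of -0.40 (SE 0.10, adjusted p = 0.00191), and was lower than in non-overload, at -0.38 (SE 0.10, adjusted p = 0.00392). In Printex90 overload it stood at 337, 327 and 346 CPM, against 370.1, 361 and 448 CPM in control. These libraries did not overlap either, but the change of -0.22 (SE 0.10, adjusted p = 0.116) was not called. It passed without the 8 libraries with collagen (-0.28, adjusted p = 0.0256). The changes with G3-1 and Bayertitan were -0.08 (adjusted p = 0.784) and -0.14 (adjusted p = 0.839).

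No difference between particles was called for Mertk. That of G1-1 minus G3-1 was -0.33 (SE 0.14, adjusted p = 0.146), and without G3-1 control replicate 3 it was -0.45 and passed (adjusted p = 0.0281). Axl was most like Gvin1 (r = 0.979) and Alox5 (r = 0.976) over the group means, and Mertk most like Heph (r = 0.974) and Inpp5b (r = 0.96). The deviations of libraries from their group means gave r of -0.06 and 0.19 for Axl with these genes, and 0.93 and 0.82 for Mertk with Heph and Inpp5b.

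Msr1, the class A scavenger receptor SR-A, which binds modified lipoproteins and bare mineral particles, stood at 414, 368 and 381 CPM in G1-1 overload and at 441, 425 and 452 CPM in G1-1 control libraries. The groups did not overlap, and the level fell by 11.8% (log2 -0.18, SE 0.05, adjusted p = 0.00413). It was lower than in non-overload, at -0.21 (SE 0.05, adjusted p = 0.00139). In G3-1 overload it stood at 453, 469 and 468 CPM, against 407, 414 and 432 CPM in G3-1 control. All overload libraries were above the controls there, and the difference of 0.15 (SE 0.05) was not called (adjusted p = 0.171).

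In Printex90 overload Msr1 stood at 430.3, 445 and 429 CPM, against 453, 445 and 439.6 CPM in control (log2 -0.04, adjusted p = 0.662). Bayertitan overload, at 504, 484 and 472 CPM against 446, 472 and 462 CPM in control, gave 0.08 (adjusted p = 0.787). The G1-1 response was below that of G3-1 (-0.33, SE 0.07, adjusted p = 0.00128) and below that of Bayertitan (-0.26, SE 0.07, adjusted p = 0.00838). The difference from G3-1 lost its call without the 8 libraries with collagen (-0.26, adjusted p = 0.087).

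Marco, the other class A receptor, is known in mice and hamsters as a main receptor of alveolar macrophages for bare particles, titanium dioxide included. In these cultures it was near the limit of detection, with 1 to 35 counts per library or 0.0296 to 1.09 CPM. G1-1 overload libraries had 2, 1 and 6 counts, against 8, 12 and 16 counts in G1-1 control libraries. These did not overlap, and the log2 change was -1.85 (SE 0.65, adjusted p = 0.0344). Against non-overload, with 14, 22 and 15 counts, it was -2.38 (SE 0.63, adjusted p = 0.0061).

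The Marco call against control rested on few counts. It was lost without G1-1 control replicate 2 (-1.91, adjusted p = 0.0562) or replicate 3 (-1.61, adjusted p = 0.115), and without G1-1 overload replicate 1 (-1.66, adjusted p = 0.107) or replicate 2 (-1.42, adjusted p = 0.14). Without the 8 libraries with collagen the changes were -1.43 against control (adjusted p = 0.167) and -1.96 against non-overload (adjusted p = 0.0599), and neither passed. In Printex90 overload there were 10, 8 and 3 counts, against 35, 8 and 11 in control, and the change of -1.39 was not called (SE 0.56, adjusted p = 0.0923). G3-1 overload had 8, 13 and 14 counts against 12, 6 and 6, and Bayertitan overload 10, 20 and 17 against 12, 20 and 23. Overload and control libraries overlapped with both of these particles.

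Marco in G1-1 overload against G3-1 gave a difference of -2.33 (SE 0.87, adjusted p = 0.0978), which was -3.26 and passed without G1-1 overload replicate 3 (adjusted p = 0.0462). The gene most like Marco over the group means was Cd5l, a soluble scavenger protein of macrophages (r = 0.946), with r = 0.23 between the deviations of libraries from their group means.

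Mrc1 and Olr1 passed in none of the comparisons. Mrc1, the mannose receptor, ranged from 917 to 1233 CPM over the 36 libraries. It stood at 1054, 917 and 1018 CPM in G1-1 overload and at 1124, 1014 and 1094 CPM in control (log2 -0.11, 95% interval -0.26 to 0.04). In Printex90 overload it stood at 1180.4, 1168 and 1221 CPM, against 1065, 1052 and 1206 CPM in control (log2 0.10, 95% interval -0.04 to 0.25). Olr1, the oxidised lipoprotein receptor LOX-1, ranged from 462 to 580.4 CPM. Its changes in overload were 0.04 with G1-1 (95% interval -0.10 to 0.18), 0.08 with Printex90 (-0.06 to 0.22), 0.06 with G3-1 (-0.08 to 0.20) and 0.05 with Bayertitan (-0.09 to 0.19). The difference of the Mrc1 responses to G1-1 and G3-1 was -0.23 (adjusted p = 0.183), and it was -0.32 and passed without G3-1 control replicate 3 (adjusted p = 0.045).

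Cd163, the receptor for haemoglobin bound to haptoglobin, had 0 to 9 counts per library and was left out of the test by the filter on low counts. Printex90 overload libraries had 6, 4 and 5 counts, against 1, 1 and 1 in control libraries. G1-1 overload libraries had 0, 1 and 3 counts, against 1, 0 and 2. G3-1 overload libraries had 3, 9 and 4 counts, against 3, 1 and 3, and Bayertitan overload libraries 5, 3 and 1, against 0, 2 and 1. The Printex90 groups did not overlap, though most of these counts are at or near the 3 counts taken as the floor. In the fit without a filter the Printex90 change was 2.15 (SE 0.90, adjusted p = 0.146).

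Averaged over the 4 particles, overload against control called 4 of the 8 receptors, where 31.9% of all genes were called. Scarb1 was higher by 0.45 (SE 0.06, adjusted p = 1.17e-06). Stab1 was lower at -0.69 (SE 0.08, adjusted p = 4.16e-07), Mertk at -0.21 (SE 0.05, adjusted p = 0.00117) and Axl at -0.18 (SE 0.02, adjusted p = 1.06e-06). For Stab1 and Scarb1 this mean covers responses that differed between particles. Markers of other cells moved in the same mean response: 6 of 8 tested epithelial markers were called lower with a median of -0.35, 4 of 7 markers of monocytes and interstitial macrophages were called lower with a median of -0.78, and 2 of 4 endothelial markers were called higher with a median of 0.20. The list for monocytes and interstitial macrophages holds the genes of complement C1q, described below. None of 5 fibroblast markers was called, at a median of -0.45. The part of these cells in the receptor calls was not tested. Of 11 tested alveolar macrophage markers, Mrc1 and Marco among them, 2 were called higher and 4 lower in G1-1 overload, where 28.1% of all genes were called. In the mean response 2 of the 11 were called higher and 2 lower, at a median of 0.04. Marco at -0.72 (SE 0.29, adjusted p = 0.0578) was not called, but was without any of G1-1 overload replicate 3, Printex90 control replicates 2 and 3 and Bayertitan control replicate 1, at -0.95 to -0.77 (adjusted p = 0.0248 to 0.0486). Olr1 at 0.06 was called without G1-1 overload replicate 2 (0.09, adjusted p = 0.0273). Without the filter Cd163 entered at 1.32 (SE 0.47, adjusted p = 0.0444).

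In non-overload, no receptor was called with G1-1, G3-1 or Bayertitan, where 0.459%, 0% and 0.335% of all genes passed. At an unadjusted p under 0.05 there were 1, 1 and 2 receptors, beside 1493, 802 and 1505 of the 14606 genes tested. DESeq2 called none of the 8. Overload against non-overload called 6 receptors with G1-1, again Scarb1 higher and Stab1, Msr1, Marco, Mertk and Axl lower, where 22.7% of all genes were called. It called 3 with Printex90, where 3.51% of all genes were called. With G3-1 and Bayertitan it called none, with 0.0274% and 0% of all genes called, no receptor at an unadjusted p under 0.05 and none by DESeq2. Of all genes tested, 1038 and 553 had an unadjusted p under 0.05. Without the 8 libraries with collagen, G3-1 overload had 1 library left, so calls of that fit are not given for it. These comparisons share libraries with those against control. In the order of group means, neighbouring groups overlapped in all 11 steps for Marco, Mertk, Mrc1 and Olr1, and in 10 for Axl, Msr1 and Scarb1.

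Bridging molecules coat a particle or dead cell so that a receptor can bind it. Of the 8 lists of other uptake genes, theirs had the lowest median change with both G1-1 and Printex90. They include complement C1q and C3, Gas6, protein S (Pros1), Mfge8 and annexin A1 (Anxa1). Of 10 tested, 5 fell and none rose in G1-1 overload, with a median of -0.26, and 6 fell and none rose in Printex90 overload, with a median of -0.49, where 14.4% and 7.31% of all genes were called lower. The 3 chains of C1q, the starter of the classical complement pathway, led both. C1qa averaged 13.5 ± 0.837 CPM in G1-1 overload and 28.0 ± 3.40 CPM in its control, and 7.41 ± 2.38 CPM in Printex90 overload and 28.4 ± 4.08 CPM in its control. Its log2 changes were -1.05 (adjusted p = 1.19e-05) and -1.95 (adjusted p = 4.12e-09). On the same log2 scale, which holds for all changes below, C1qb changed by -1.12 and -2.33, and C1qc by -1.18 and -2.39, with G1-1 and Printex90. C3, the central complement component, averaged 18.3 ± 1.85 CPM in G1-1 overload and 36.7 ± 5.33 CPM in its control (adjusted p = 2.25e-05), and 18.7 ± 3.25 CPM in Printex90 overload and 46.6 ± 9.79 CPM in its control (adjusted p = 1.94e-06). Anxa1 changed by -0.27 and -0.17. Mfge8, which ties phosphatidylserine to integrins, fell by 0.72 with Printex90 (adjusted p = 0.0169), and is named after its values were seen. The other 7 lists had medians of -0.04 to 0.11 with G1-1 and -0.26 to 0.03 with Printex90, beside -0.02 and -0.01 over all genes.

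Printex90 non-overload, in which Stab1 was lower, also had lower C1qb and C1qc, at -0.92 each (adjusted p = 0.0123 and 0.0212), and lower C1qa at -0.79 (adjusted p = 0.0237). These C1q calls were examined in the main fit only, and the Stab1 call there was lost in some other fits, as given above. None of the 10 bridging molecules was called in overload with G3-1 or Bayertitan. The C1q responses to G1-1 were above those to Printex90, by 1.21 for C1qb (adjusted p = 0.0015) and C1qc (adjusted p = 0.00305) and 0.90 for C1qa (adjusted p = 0.0109). The ligands of Mertk and Axl were not called: Gas6 changed by 0.24 in G1-1 overload (adjusted p = 0.0512) and 0.05 in Printex90 overload (adjusted p = 0.78), and Pros1 by -0.14 and -0.27 (adjusted p = 0.818 and 0.666).

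The C1q genes also belong to the markers of monocytes and interstitial macrophages. The 7 measured genes of that list summed to 200.2 to 230 CPM in G1-1 overload, against 239 to 272 CPM in control, and to 214 to 226 CPM in Printex90 overload, against 266 to 280.1 CPM in control. Of the 7, 4 were called lower in G1-1 overload (median -1.05), 5 in Printex90 overload (median -1.95) and 3 in Printex90 non-overload (median -0.79), and none in overload with G3-1 or Bayertitan. The 3 C1q genes are part of these sums and counts, and they were the 3 called in Printex90 non-overload. Each of these medians equals the change of C1qa given above, so the medians do not describe the other genes of the list. Folr2 and Cd14 had the highest CPM of the 7, at 100 to 155 CPM and 60.8 to 78.0 CPM over all libraries. Cx3cr1 of the same list, with at most 35 counts in a library, was at 0.172 ± 0.118 CPM in G1-1 overload and 0.80 ± 0.24 CPM in control. The part of such cells in the lower Stab1 and C1q levels was not tested. Stab1 is also known from endothelium: the 6 measured endothelial markers summed to 135 to 165 CPM in G1-1 overload against 115 to 124 CPM in control, and to 123 to 139 CPM in Printex90 overload against 117 to 131 CPM in control. Most of these sums was Tie1, at 78.8 to 134 CPM over all libraries, and Kdr and Cldn5 had at most 7 and 1 counts in a library. The 10 epithelial markers summed to 1193 to 1763 CPM in G1-1 overload against 1585 to 2134 CPM in control, and to 1111 to 1371 CPM in Printex90 overload against 1107 to 2070 CPM in control, and Sftpc and Sftpb had at most 1 and 7 counts. Of the 8 epithelial markers tested, none was called in G1-1 overload (median -0.46) and 2 were called lower in Printex90 overload (median -0.51).

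The counts of the other 7 lists stand beside 28.1% of all genes called with G1-1 and 14.8% with Printex90, either way. The share called was smaller than that of all genes for dead-cell receptors, engulfment machinery and sheddases with G1-1. It was smaller for complement receptors, engulfment machinery, sheddases and transcription factors with Printex90. Among 12 tested other scavenger receptors, 3 rose and 2 fell in G1-1 overload, and 1 rose and 1 fell in Printex90 overload. Cd68, a lysosomal glycoprotein of macrophages, rose by 0.31 (adjusted p = 0.00436) and 0.27 (adjusted p = 0.0221). Cd5l changed by -0.93 (adjusted p = 6.39e-05) and -0.49 (adjusted p = 0.0419). Scarf1, a class F receptor that binds C1q on dead cells, rose by 0.30 with G1-1, as did the endocytic receptor Lrp1, by 0.19, while the collectin Colec12 fell by 0.34.

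Of 9 tested other dead-cell receptors, 1 rose and 1 fell with G1-1, and none rose and 3 fell with Printex90. Tyro3, the remaining TAM kinase, rose by 0.20 with G1-1 (adjusted p = 0.009), where Mertk and Axl fell. Its response to G1-1 was above that to Printex90 by 0.30 (adjusted p = 0.0146). Ptafr, the receptor for platelet-activating factor, changed by -0.22 and -0.31, and the integrin subunit Itgav fell by 0.26 with Printex90. Of 11 C-type lectin receptors, none rose and 4 fell with G1-1, and 3 rose and 3 fell with Printex90. Clec4a3, whose counts are uncertain since near-identical members of its family can share reads, changed by -0.76 and -0.42. Clec4e, or Mincle, which senses dead cells and mycobacterial glycolipid, rose by 0.54 with Printex90 (adjusted p = 0.0117).

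Of 8 complement receptors and integrins, 2 rose and 2 fell with G1-1, and none rose and 1 fell with Printex90. Vsig4, which binds C3 fragments, fell by 0.57 and C3ar1, the receptor for the peptide C3a, fell by 0.74 with G1-1, while Itga5 rose by 0.36. C5ar1 fell by 0.22 with Printex90. Of 16 genes of the engulfment machinery, 3 rose and none fell with G1-1, and 1 rose and 1 fell with Printex90. Abca1, which exports cholesterol, rose by 0.30 with G1-1 (adjusted p = 0.00313) and 0.36 with Printex90 (adjusted p = 0.00184).

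Sheddases cut receptors such as Mertk and Axl from the surface. Of 5 genes of sheddases and their regulators, 1 rose with G1-1 and none changed with Printex90. It was Rhbdf2, which escorts the sheddase Adam17, at 0.42 (adjusted p = 1.64e-06). Of 13 transcription factors known to act on receptor genes, 3 rose and 2 fell with G1-1, and 1 rose with Printex90. Maf rose with G1-1 by 0.24 (adjusted p = 0.00861), with Printex90 by 0.40 (adjusted p = 0.000178) and with G3-1 by 0.30 (adjusted p = 0.0384). In G3-1 overload it was the gene called of all these 8 lists, and in Bayertitan overload there was none. Ahr, the aryl hydrocarbon receptor, fell by 0.51 and Nfe2l2, or NRF2, fell by 0.31 with G1-1. Bach1, a repressor of NRF2 target genes, rose by 0.26 and Cebpb by 0.35.

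**Figure D4:**
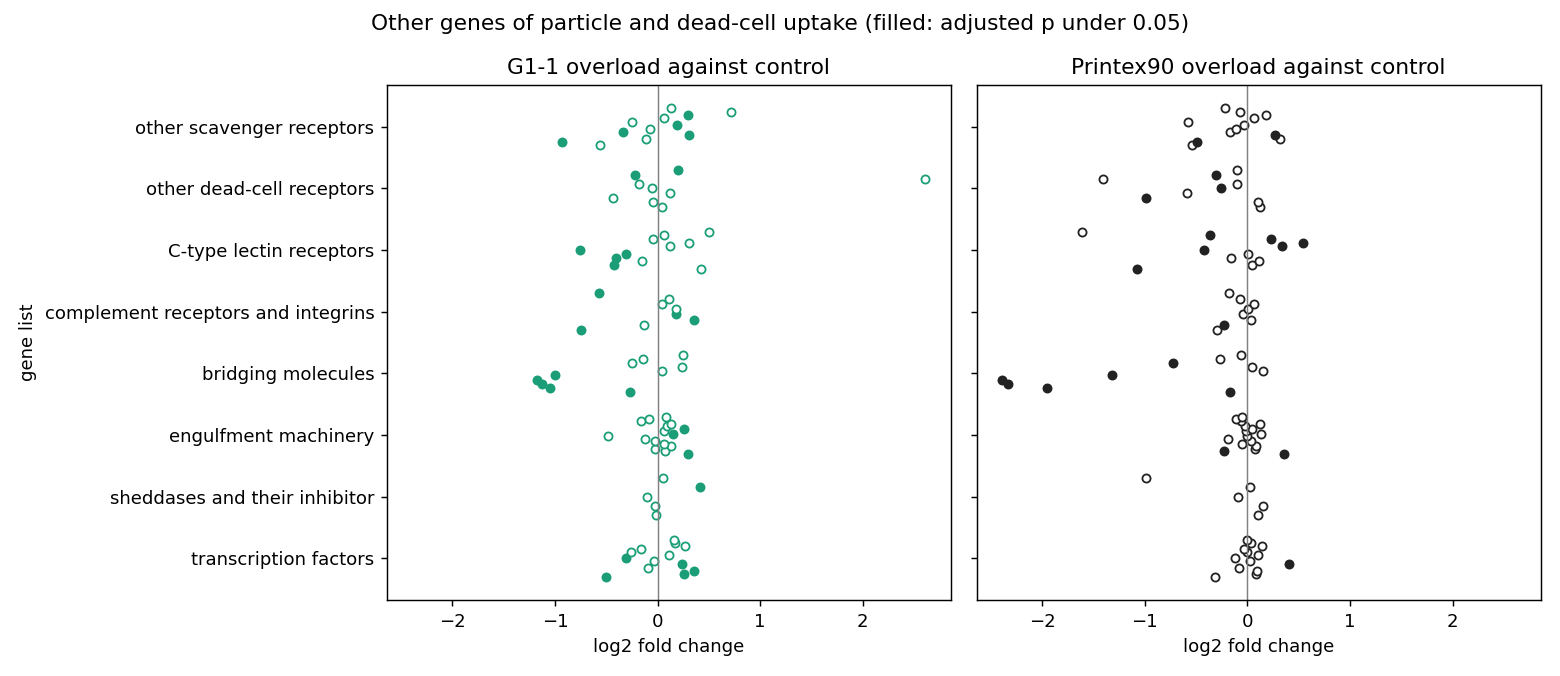
Each point is the log2 fold change of a gene of 8 lists of uptake genes in overload against control, for G1-1 (left) and Printex90 (right), with filled points at an adjusted p under 0.05. The bridging molecules hold the filled points farthest below 0, C1qc at -1.18 with G1-1 and -2.39 with Printex90.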

How the data were processed

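The authors deposited 1 table of expected counts per gene name for 36 libraries, in which 30.5% of values had decimals. The submitters' processing notes name the Rnor_6.0 build and the tools FastQC, MultiQC and Salmon. Their versions and settings are not stated there. Per the labels' protocols, cells were kept for 5 days in medium with 10% serum, and 150 ng of total RNA per library was depleted of ribosomal RNA. Whether strand was used in counting is not given, so reads of overlapping and antisense genes cannot be told apart.

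Each library was placed in its group by its GEO title, and no column was left unused. Expected counts were rounded and fitted in R 4.3.3 with edgeR 4.0.16: TMM scaling, filterByExpr (min.count 10, min.total.count 15), and quasi-likelihood tests with 12 group coefficients, 24 residual degrees of freedom and Benjamini-Hochberg adjustment over 14606 genes. The common biological coefficient of variation was 0.103, and the median log2 change of all genes lay within 0.0203 of 0. Between replicates of a group the chi-square of counts over genes was 3.82 to 37.2 times its degrees of freedom, so no library was taken for a repeat of another. Errors of log2 changes are standard errors (SE), intervals are 95% intervals of the fit, and the floor of 3 counts covers counting error only. The code was tested on simulated data.

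All 10 receptors are named. For each receptor the 3 most alike genes were taken by Pearson correlation of group means of log2 CPM among genes with a RefSeq symbol and a mean of at least 1 CPM. A gene that this rule took is not reported here. Of each list the called genes of the mean response with the smallest p, at most 4, were named, and any called gene where 5 or fewer of a list were called. Same-numbered libraries deviated together in all 3 pairs of Printex90 non-overload and control (r = 0.21, 0.43 and 0.43), so the numbers were taken to pair those groups, from the data and not from the labels. In every other pair of groups of a particle at least 1 r was below 0.1. The receptors, lists, markers and comparisons were chosen with earlier results of these data known. Of the symbols in the table, 71.1% matched RefSeq's GRCr8 annotation. Alternatives were DESeq2 1.42.0, its size factors, no filter on low counts, a replicate block, fits of a single particle, leaving out each library in turn and leaving out the 8 libraries with Col3a1 above 10 CPM.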

Additional observations from a re-analysis of the deposited data

Results flagged for a closer look

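The overload responses of Stab1, Scarb1 and Msr1 differed between particles by a test of the difference itself. All 6 pairs of particles were tested over all genes with edgeR's quasi-likelihood test and Benjamini-Hochberg adjustment, and 10 of the 48 receptor differences passed. Of all genes, 11.1% were called for G1-1 minus Printex90, 9.28% for G1-1 minus G3-1, 12.3% for G1-1 minus Bayertitan, 0.644% for Printex90 minus G3-1, 1.18% for Printex90 minus Bayertitan and 0% for G3-1 minus Bayertitan.

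For Stab1 the log2 difference was 2.30 for G1-1 minus Printex90 (adjusted p = 1.48e-07), -0.98 for G1-1 minus G3-1 (adjusted p = 0.00492) and -1.04 for G1-1 minus Bayertitan (adjusted p = 0.00244). It was -3.28 for Printex90 minus G3-1 (adjusted p = 6.78e-10) and -3.33 for Printex90 minus Bayertitan (adjusted p = 4.95e-10). For Scarb1 it was 0.55 for G1-1 minus G3-1 (adjusted p = 0.0327), 0.79 for G1-1 minus Bayertitan (adjusted p = 0.00146) and 0.74 for Printex90 minus Bayertitan (adjusted p = 0.018). For Msr1 it was -0.33 for G1-1 minus G3-1 (adjusted p = 0.00128) and -0.26 for G1-1 minus Bayertitan (adjusted p = 0.00838).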

How the results depend on the processing

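Counts of receptors called by edgeR changed as follows under another choice, beside leaving out single libraries. For the overload difference Printex90 minus G3-1, DESeq2 called 2 in place of 1, with Axl added. For Printex90 minus Bayertitan, DESeq2 and the fit without the 8 libraries with Col3a1 above 10 CPM called 3 in place of 2, also with Axl added. For G1-1 overload against non-overload, DESeq2 called 5 in place of 6 and gave Marco no adjusted p. For the non-overload difference Printex90 minus G3-1, DESeq2, the fit without a filter on low counts and the fit with a replicate block called 1, Stab1, in place of 0. For Printex90 non-overload against control, the count of 1 became 0 with only that particle's libraries and 0 without the 8 libraries. Without those 8, G1-1 overload had 5 in place of 6 against control and against non-overload, with Marco lost, and Printex90 overload against control had 4 in place of 3, with Mertk added. In the same fit the overload difference G1-1 minus G3-1 had 1 in place of 3, and the non-overload differences Printex90 minus G1-1 and minus Bayertitan had 0 in place of 1. Fewer libraries entered these last fits, and other causes were not tested. No direction of a called value was reversed in any of these fits.

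Leaving out single libraries gave 5 to 6 receptors for G1-1 overload against control, 0 to 1 for Printex90 non-overload against control, 2 to 3 for Printex90 overload against non-overload, 2 to 4 for G1-1 minus G3-1, 1 to 2 for Printex90 minus G3-1, 1 to 3 for Printex90 minus Bayertitan, 4 to 5 for the mean response, and 0 to 1 for the non-overload differences from G3-1 and Bayertitan. The other comparisons kept their count. Of 176 receptor values, DESeq2's size factors changed no call, no filter and the replicate block changed 1 each, and DESeq2 changed 3 and gave no adjusted p for 8. Over the fits that left out single libraries, 1596 receptor values kept their status, 25 lost a call and 11 gained one. The 1596 include values that were called in neither fit, so they are not a count of calls.

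Replicate numbers paired Printex90 non-overload with its control by their deviations, and with the replicate block Stab1 in that comparison was -0.92 (adjusted p = 0.00623) and 35 genes in place of 30 were called. In the other pairs of groups of a particle the numbers were not taken as pairs, since at least 1 r was below 0.1. G3-1 overload and control came close, with r = 0.22, 0.0993 and 0.54 for replicates 1, 2 and 3. Both had Col3a1 above 10 CPM in replicates 1 and 2 and not in replicate 3. In Printex90 control and Printex90 non-overload, replicate 2 was above 10 CPM of Col3a1 and replicates 1 and 3 were not. The part of this in the r of these groups was not tested. Whether those samples were paired is not given by the labels. Of all 36 same-number pairs, 9 correlated above 0.1, with r from -0.25 to 0.54, and 19 correlated best with their own number. For Bayertitan 7 of 9 did, with r of at most 0.09. With the block, Stab1 in the non-overload difference Printex90 minus G3-1 was -1.17 (adjusted p = 0.0313).

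The number of all genes called moved more than that of the receptors. With DESeq2 it was 208 in place of 83 for G3-1 overload, 126 in place of 48 for Bayertitan overload, 180 in place of 67 for G1-1 non-overload, 58 in place of 30 for Printex90 non-overload, 14 in place of 0 for G3-1 non-overload, 181 in place of 49 for Bayertitan non-overload, and 184 in place of 94 for Printex90 minus G3-1. With only its own libraries, Printex90 overload against control had 1373 in place of 2155, G3-1 overload 1 in place of 83 and G1-1 non-overload 0 in place of 67. Without the 8 libraries, G3-1 overload and G3-1 control had 1 library each, so counts of all genes that involve these groups are not given. Printex90 overload against non-overload had 268 in place of 513 without the 8. Against control in that fit, Bayertitan overload had 86 in place of 48, Bayertitan non-overload 90 in place of 49 and Printex90 non-overload 11 in place of 30. With only its own libraries, Printex90 overload against non-overload had 186 in place of 513. Bayertitan non-overload had 23 in place of 49 without a filter and 98 with the block, and Bayertitan overload had 75 in place of 48 with the block. Apart from the G3-1 counts that are not given, other counts that moved over 1.5 times in these fits had at most 30 genes. Single libraries gave 997 to 2861 for Printex90 overload, 26 to 233 for G3-1 overload, 3 to 19 for Bayertitan overload, and 3 to 36, 9 to 27 and 1 to 21 for G1-1, Printex90 and Bayertitan non-overload, all against control. They gave 158 to 614 for Printex90 overload against non-overload and 93 to 317 for Printex90 minus Bayertitan.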
